A study of Mus musculus with 5 samples.

Results

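The genes described here encode the factors that start, extend and end protein synthesis on messenger RNA, together with the proteins that bind the poly(A) tail. A list of 37 such genes was taken, and a gene was represented by the brightest probe set whose annotation gave that gene symbol alone. By this rule 33 of the 37 genes had a value, out of 18193 genes measured in the series. Eif1, Eif2s1, Eif4g1 and Eef1g were not analysed here. The 33 genes were read by 106 probe sets in all, and 27 of them by more than 1.

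RNA came from bone marrow stem and progenitor cells of C57BL/6 mice, sorted by flow cytometry, and each of 5 Affymetrix arrays carried 1 sample. The 3 control arrays came from mice labelled as control rtTA, where rtTA is a transactivator protein that needs doxycycline to turn on its target transgene, and 2 arrays came from mice labelled as MSI2-inducible. The labels used here give no age, no dose or duration of induction, no promoter for rtTA, no transgene sequence and no statement on pooling of animals. The sample labels describe a Sca1+ Kit+ gate (LSK), whereas the series text describes Kit+ cells without Sca1 (LK), so the gate is uncertain. Whether the arrays within a group represent different mice is not stated in the labels, so p-values measure array-to-array spread only, and that spread may be technical.

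A ribosome is brought to most mRNAs through the cap. The cap-binding protein eIF4E, the scaffold eIF4G and the helicase eIF4A load a small subunit that carries eIF3 and the initiator tRNA held by eIF2, and this subunit scans to the start codon. Poly(A) binding protein, encoded by Pabpc1, sits on the tail and touches eIF4G, which joins both ends of the message. Musashi proteins are RNA-binding proteins that act on translation, and for the related protein Musashi1 binding to poly(A) binding protein in competition with eIF4G has been described. The comparison therefore asks whether mRNA of the general translation apparatus differed in MSI2-inducible cells; mRNA levels do not measure translation itself.

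Levels are given as log2 intensity in replicate order (control replicates 1, 2 and 3, then MSI2-inducible replicates 1 and 2), and a difference is the MSI2-inducible mean minus the control mean. The arrays of both groups were alike over all genes, with Pearson correlations across genes between 0.965 and 0.989. MSI2-inducible replicate 1 stood apart on the first principal component (41.8% of the variance), with a score of 56.5 against -5.35 for MSI2-inducible replicate 2 and -37.3 to -2.87 for the control arrays. Stem and progenitor markers were present in every array, with Kit between 8.80 and 9.66 and Cd34 between 10.2 and 10.997, while the 3 T cell markers with a value averaged under the median of all probe sets (5.57). The mouse Msi2 gene measured 11.67, 11.76 and 11.74 in control arrays, and 11.003 and 11.43 in MSI2-inducible arrays, a difference of -0.51 (limma adjusted p 0.883). Without the transgene's sequence, it is unknown whether these probes read it, and the value does not check the labels.

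Promoter sequence is described here as a feature that the list did not use. The pyrimidine tract was planned, whereas the E-box search was not. Of the 33 genes, 24 had an entry in RefSeq's promoter table (GRCm38.p6), which spans 250 bases before to 50 bases after each annotated start. The E-box CACGTG, which reads the same on both strands and is the site that Myc and related factors bind, was found in 6 of the 24 (25%), against 10.2% of the 14452 measured genes with an entry. These were Eef2, Eif3a, Eif4a1, Eif4e, Eif4h and Eif5a. Genes with several annotated starts, such as Eif4e and Eif5a, have more windows in which a match can fall. Stretches of 30 bases around the E-box are shown for the cap-binding gene Eif4e, whose direction depended on the probe set read. Such stretches are also shown for the elongation genes Eef2 and Eif5a, which barely differed in their brightest probe sets (Eif5a's second differed by 0.33). They lie at chr3:138527028-138527057 and chr3:138527192-138527221 (both plus strand) for Eif4e, at chr10:81176576-81176605 (plus strand) for Eef2 and at chr11:69921443-69921472 (minus strand) for Eif5a, and the capitals mark the E-box.
Eif4e, distal site: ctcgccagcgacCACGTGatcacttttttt
Eif4e, proximal site: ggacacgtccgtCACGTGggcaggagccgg
Eef2: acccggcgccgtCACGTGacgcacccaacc
Eif5a: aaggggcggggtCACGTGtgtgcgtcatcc

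Members with an E-box had a median difference of -0.06 and the other 18 had 0.08. Many mRNAs of the translation apparatus begin with a terminal oligopyrimidine tract, through which growth signals control their translation. A run of at least 5 pyrimidines that starts with C within 10 bases of the annotated start was found in 6 of the 24 members (25%), against 36.4% of measured genes with an entry. The 30 bases around the start are shown for Eef1a1 (chr9:78481710-78481739, minus strand) and Paip1 (chr13:119428585-119428614, plus strand), with the tract in capitals. In Paip1 it begins at the annotated start itself.
Eef1a1: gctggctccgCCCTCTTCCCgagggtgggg
Paip1: accgtcagtctcgcaCTTTTCTCCggaggg

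None of the 33 genes passed the test. By limma with Benjamini-Hochberg adjustment over all genes, 0 were called higher and 0 lower at an adjusted p of 0.05, against 4 of all 18193 genes (0.022%; 0.0165% higher and 0.0055% lower), and the members' adjusted p lay between 0.870 and 0.994. At an unadjusted p under 0.05, 2 members, Eif4e and Paip1, were higher and 0 were lower, which is 6.06% of members against 5.64% of all genes (2.87% higher and 2.77% lower). These 2 calls are not independent of the choice of probe set, since the brightest was taken over all 5 arrays and the MSI2-inducible values helped to choose it. In control arrays alone another probe set was brighter for 3 members, Eif4e, Paip1 and Gspt1 (9.09%, against 1.92% of all genes). With the brightest in control arrays, a rule added after the data were seen that can favour lower values in turn, 0 members were higher and 2, Paip1 (-1.06) and Gspt1 (-0.74), were lower at an unadjusted p under 0.05, against 2.63% and 2.96% of all genes. None was called, and the median difference of members was -0.0375. For 7 members every MSI2-inducible array lay above every control array, and for 2 every one lay below. These make 27.3% of members, against 18.7% of all genes (9.27% above and 9.39% below). Among the 5883 genes with a mean between 8 and 14 the share was 21.7%. The 7 include Eif4e and Paip1, whose probe sets were chosen with the help of their MSI2-inducible values. Differences were higher for 18 and lower for 15, with a median of 0.04 and a range from -0.31 for Eif4ebp2 to 0.77 for Eif4ebp1; over all genes the median was 0.00. The count of 2 members became 0 without control replicate 2 and 1 without control replicate 3. Shares of all genes in those fits are not given here, so these counts have no background beside them. Without MSI2-inducible replicate 2, Eif4b differed by -0.44 and Eif2b1 by -0.52.

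The measurement was tight for most of the list. The median SD among control arrays was 0.10 over members, against 0.22 over all genes and 0.19 over the 5883 genes with a mean between 8 and 14. For 27 of the 33 members the 95% interval of the difference lay within 1 log2 unit (2-fold) in either direction, and for 19 it lay within 1.5-fold. In the brightest probe set, a difference of 2-fold or more was therefore outside the interval for these 27 genes. For the 19, so was one of 1.5-fold or more. The intervals of Eif4e, Eif4e2, Eif4ebp1, Eif4ebp2, Eif5b and Paip1 were wider or lay further from 0 and reached past 1. This does not hold for every probe set of the 27. In the fit over all probe sets, intervals past 2-fold included Gspt1's 1435000_at (-1.56 to -0.18) and Pabpc1's 1453840_at (0.37 to 1.29).

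**Figure D1:**
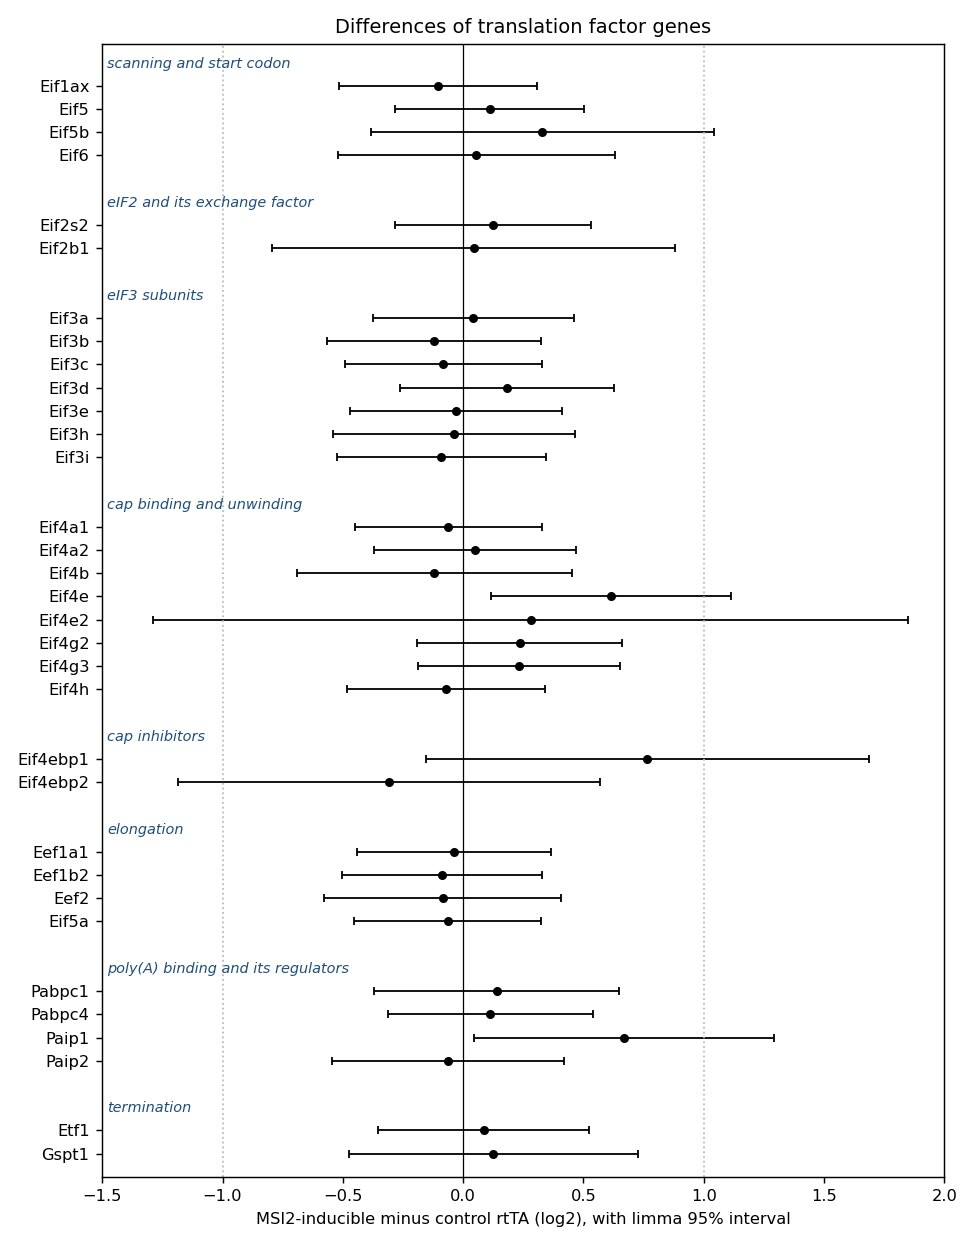
Differences in log2 intensity (MSI2-inducible minus control rtTA) of the brightest probe set of each of 33 translation factor genes, grouped by role, with limma's 95% interval as bars and dotted lines at a 2-fold difference. Most points sit near 0 with intervals inside the dotted lines; Eif4ebp1 (0.77), Paip1 (0.67) and Eif4e (0.61) lie furthest to the right.

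Factors that guide scanning and recognition of the start codon differed little. Eif5, which triggers GTP hydrolysis by eIF2 at the start codon, lay at 11.80, 11.87 and 11.91 in control arrays, and 11.97 and 11.98 in MSI2-inducible arrays. Both MSI2-inducible arrays were above every control array, but by a margin smaller than the fit's error (difference 0.11, SE 0.16, adjusted p 0.963). All 5 Eif5 probe sets lay higher, with differences from 0.11 to 0.63, and the largest (1456256_at) had an unadjusted p of 0.0258 and an adjusted p of 0.850 in a limma fit over all probe sets. Eif1ax, which opens the small subunit for scanning, lay at 11.56, 11.56 and 11.39 in control and 11.35 and 11.45 in MSI2-inducible arrays (difference -0.10, adjusted p 0.969), so the groups overlapped. Eif5b joins the subunits. Its brightest probe set was high in MSI2-inducible replicate 1 alone (10.81, against 10.13 in replicate 2 and 9.82 to 10.43 in control arrays). The other 2 Eif5b probe sets lay lower without overlap, with differences of -0.21 and -0.23. Eif6, which keeps the large subunit from joining too early, differed by 0.05.

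Of the genes around eIF2, the carrier of the initiator tRNA, Eif2s2 differed by 0.12 (95% interval -0.28 to 0.53). Eif2b1, a subunit of the exchange factor that recharges eIF2, lay at 8.45, 8.60 and 8.60 in control arrays, and 8.03 and 9.16 in MSI2-inducible arrays. One MSI2-inducible array was thus below and the other above all control arrays, and the mean difference of 0.04 describes neither.

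The 7 eIF3 subunits, the scaffold of the small subunit complex, differed little, with differences from -0.12 (Eif3b) to 0.18 (Eif3d) and all 7 intervals within 2-fold. Eif3b lay at 9.68, 9.57 and 9.58 in control and 9.33 and 9.65 in MSI2-inducible arrays, so replicate 1 lay below the controls and replicate 2 within them. Eif3d, a subunit that can itself bind the cap, lay at 10.41, 10.11 and 10.38 in control and 10.54 and 10.43 in MSI2-inducible arrays, without overlap (difference 0.18, adjusted p 0.944). Eif3a, Eif3c, Eif3e, Eif3h and Eif3i differed by -0.09 to 0.04. The 4 Eif3e probe sets agreed, with differences from -0.10 to -0.03.

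Among the cap-binding and unwinding factors, Eif4e stood out in its brightest probe set only. This probe set (1450908_at) gave 9.32, 9.07 and 9.35 in control arrays, and 9.67 and 10.05 in MSI2-inducible arrays. Both MSI2-inducible values were above all controls, a difference of 0.61 (1.53-fold; SE 0.20) with a limma adjusted p of 0.870. In control arrays it was not the brightest (mean 9.25, against 9.41 for 1423220_at), so its high MSI2-inducible values made it the gene's probe set, and its test is conditioned on them. The other 3 probe sets of Eif4e differed by -0.13 to -0.09, and the brightest of them in control arrays (1423220_at) gave 9.53, 9.33 and 9.37 in control and 9.30 and 9.33 in MSI2-inducible arrays. With the mean of its probe sets Eif4e differed by 0.075. The direction for the gene therefore depends on the probe set read.

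The scaffold genes Eif4g2 and Eif4g3 both lay higher without overlap. Eif4g2, a relative of eIF4G that lacks the eIF4E and poly(A) binding protein contacts, lay at 11.52, 11.43 and 11.62 in control and 11.66 and 11.86 in MSI2-inducible arrays (difference 0.24, SE 0.17, adjusted p 0.925). Eif4g3, a homologue of the eIF4G scaffold, lay at 9.67, 9.70 and 9.78 in control and 9.83 and 10.07 in MSI2-inducible arrays (difference 0.23, SE 0.17, adjusted p 0.925). For both genes replicate 2 was the higher of the MSI2-inducible arrays, and neither gene's 95% interval excluded 0. Probe sets disagreed, with differences from -0.22 to 0.72 for Eif4g2 and from -0.56 to 0.32 for Eif4g3.

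The helicase genes Eif4a1 (-0.06) and Eif4a2 (0.05) and the helicase cofactor Eif4h (-0.07) differed by less than their errors. In its brightest probe set Eif4a1 nonetheless lay lower without overlap, at 12.06, 11.984 and 12.06 in control and 11.981 and 11.96 in MSI2-inducible arrays. The other 2 Eif4a1 probe sets lay higher, by 0.14 and 0.15. Eif4b, the other helicase cofactor, was uniform in control arrays (11.68, 11.61 and 11.67) and split in MSI2-inducible arrays (11.21 in replicate 1 and 11.86 in replicate 2). Its 3 probe sets all lay lower, by -0.19 to -0.12. Eif4e2, a cap-binding homologue that represses translation, was the most variable member, at 11.98, 9.99 and 10.98 in control and 11.87 and 10.66 in MSI2-inducible arrays. Its control SD of 0.99 was larger than its difference of 0.28.

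The 4E binding proteins block eIF4E until they are phosphorylated by mTOR. Eif4ebp1 lay at 8.60, 8.61 and 8.51 in control and 9.98 and 8.70 in MSI2-inducible arrays (difference 0.77, SE 0.37, 95% interval -0.15 to 1.69, adjusted p 0.911). Both MSI2-inducible arrays were above the controls, but replicate 1 made most of the difference, and without it the difference was 0.13. A second probe set (1417562_at) was higher in both MSI2-inducible arrays to a like degree, at 8.60, 8.22 and 8.49 in control and 9.17 and 9.08 in MSI2-inducible arrays (difference 0.68, unadjusted p 0.0138, adjusted p 0.763 over all probe sets). The last probe set, dim in every array (4.72 to 5.10), differed by -0.13. Eif4ebp2 lay at 9.15, 8.0004 and 8.71 in control and 8.14 and 8.48 in MSI2-inducible arrays (difference -0.31, adjusted p 0.951), so the MSI2-inducible arrays lay inside the control range. Its other 4 probe sets differed by -0.01 to 0.32.

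**Figure D2:**
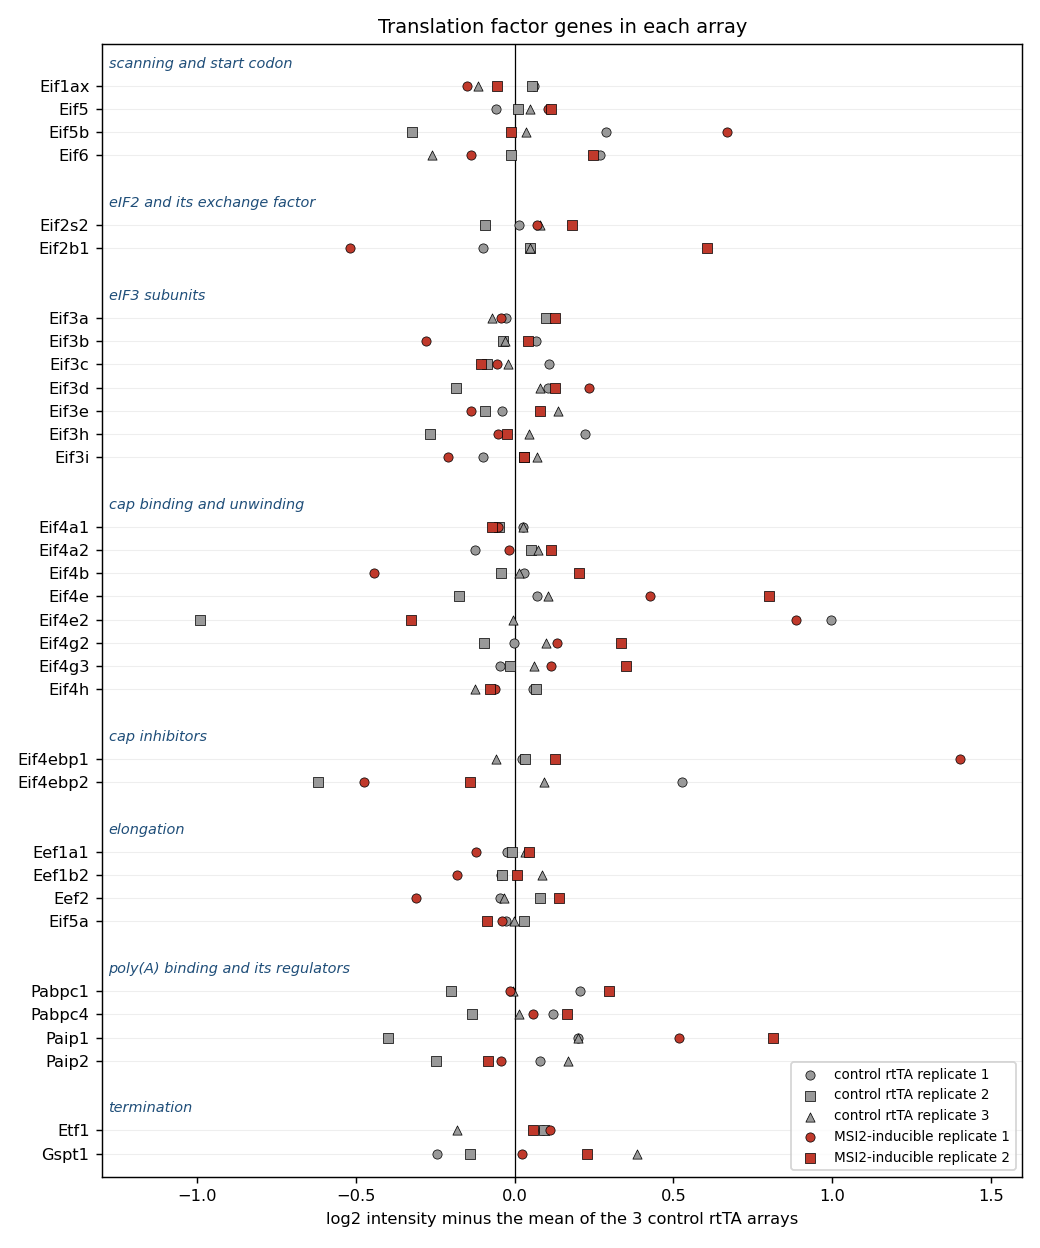
Log2 intensity of 33 translation factor genes in each array, as the distance from the mean of the 3 control rtTA arrays (grey); MSI2-inducible arrays are red, with symbols for replicate number. Eif4ebp1 is high in MSI2-inducible replicate 1, and Eif2b1, Eif4b and Eef2 lie left of the controls in replicate 1 and right of them in replicate 2.

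All 4 elongation factor genes lay slightly lower, by amounts within their errors. Eef1a1, which delivers aminoacyl-tRNA to the ribosome, lay at 13.67, 13.68 and 13.72 in control and 13.57 and 13.74 in MSI2-inducible arrays (difference -0.04, 95% interval -0.44 to 0.37). Eef1b2, its exchange factor, lay at 13.03, 13.03 and 13.16 in control and 12.89 and 13.08 in MSI2-inducible arrays (difference -0.09). Eef2, the translocase, lay at 12.96, 13.09 and 12.97 in control and 12.70 and 13.15 in MSI2-inducible arrays (difference -0.09). For all 3 genes MSI2-inducible replicate 1 lay below and replicate 2 within or above the controls. Eif5a, the hypusine-carrying factor that frees stalled ribosomes, lay at 12.86, 12.91 and 12.88 in control and 12.84 and 12.80 in MSI2-inducible arrays, lower without overlap but by 0.06 only (adjusted p 0.982). Its second probe set differed by 0.33. Probes of these genes may also read processed copies elsewhere in the genome, so their values are uncertain in that respect.

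Poly(A) binding proteins did not differ detectably in their brightest probe sets. Pabpc1 lay at 12.17, 11.76 and 11.96 in control and 11.95 and 12.26 in MSI2-inducible arrays, with overlap (difference 0.14, SE 0.21, 95% interval -0.37 to 0.65, adjusted p 0.963). A second, dimmer Pabpc1 probe set (1453840_at) lay at 8.04, 8.04 and 8.32 in control and 8.93 and 8.99 in MSI2-inducible arrays, clear of the controls in both (difference 0.83, unadjusted p 0.00475, adjusted p 0.621 over all probe sets). With the mean of both probe sets Pabpc1 differed by 0.48 (unadjusted p 0.0279, limma adjusted p 0.770). Pabpc4, the inducible poly(A) binding protein, differed by 0.11, and its second probe set by 0.14.

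The PABP-interacting proteins have opposed roles: Paip1 stimulates translation and Paip2 strips poly(A) binding protein from the tail. Paip1's brightest probe set (1425521_at) lay at 8.21, 7.61 and 8.21 in control and 8.53 and 8.83 in MSI2-inducible arrays, higher in both (difference 0.67, 1.59-fold; SE 0.25, limma adjusted p 0.883). It was the brightest over 5 arrays but not in control arrays (mean 8.01, against 8.43 for 1451740_at), so its test too is conditioned on the MSI2-inducible values. The probe set 1451740_at went the other way, from 8.50, 8.14 and 8.67 in control to 7.32 and 7.43 in MSI2-inducible arrays (difference -1.06, unadjusted p 0.00336, adjusted p 0.582 over all probe sets). Another (1456852_at) was also lower, at 6.54, 6.64 and 6.52 against 5.51 and 5.87 (difference -0.88, unadjusted p 0.00440), and 1441955_s_at differed by -0.01. The first 3 separated the groups without overlap, but not in one direction, and with the mean of its probe sets Paip1 differed by -0.32. The files used here do not say which part of the transcript each probe set reads. Paip2 lay at 12.21, 11.88 and 12.29 in control and 12.08 and 12.04 in MSI2-inducible arrays (difference -0.06, adjusted p 0.983), inside the control range.

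Release factor genes did not pass the test either. Etf1, which recognises stop codons, differed by 0.09 in its brightest probe set, and all 6 of its probe sets lay higher, with differences up to 0.84. Gspt1, the GTPase partner of Etf1, lay at 10.21, 10.31 and 10.84 in control and 10.47 and 10.68 in MSI2-inducible arrays (difference 0.13, adjusted p 0.978). The probe set 1426737_at, by a small margin the brightest in control arrays, lay lower, at 10.16, 10.73 and 10.47 against 9.37 and 10.07 (difference -0.74, unadjusted p 0.0468), as did 1435000_at (8.69, 8.52 and 8.20 against 7.27 and 7.94; difference -0.87, unadjusted p 0.0218). Of Gspt1's 6 probe sets, 4 lay lower and 2 higher.

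**Figure D3:**
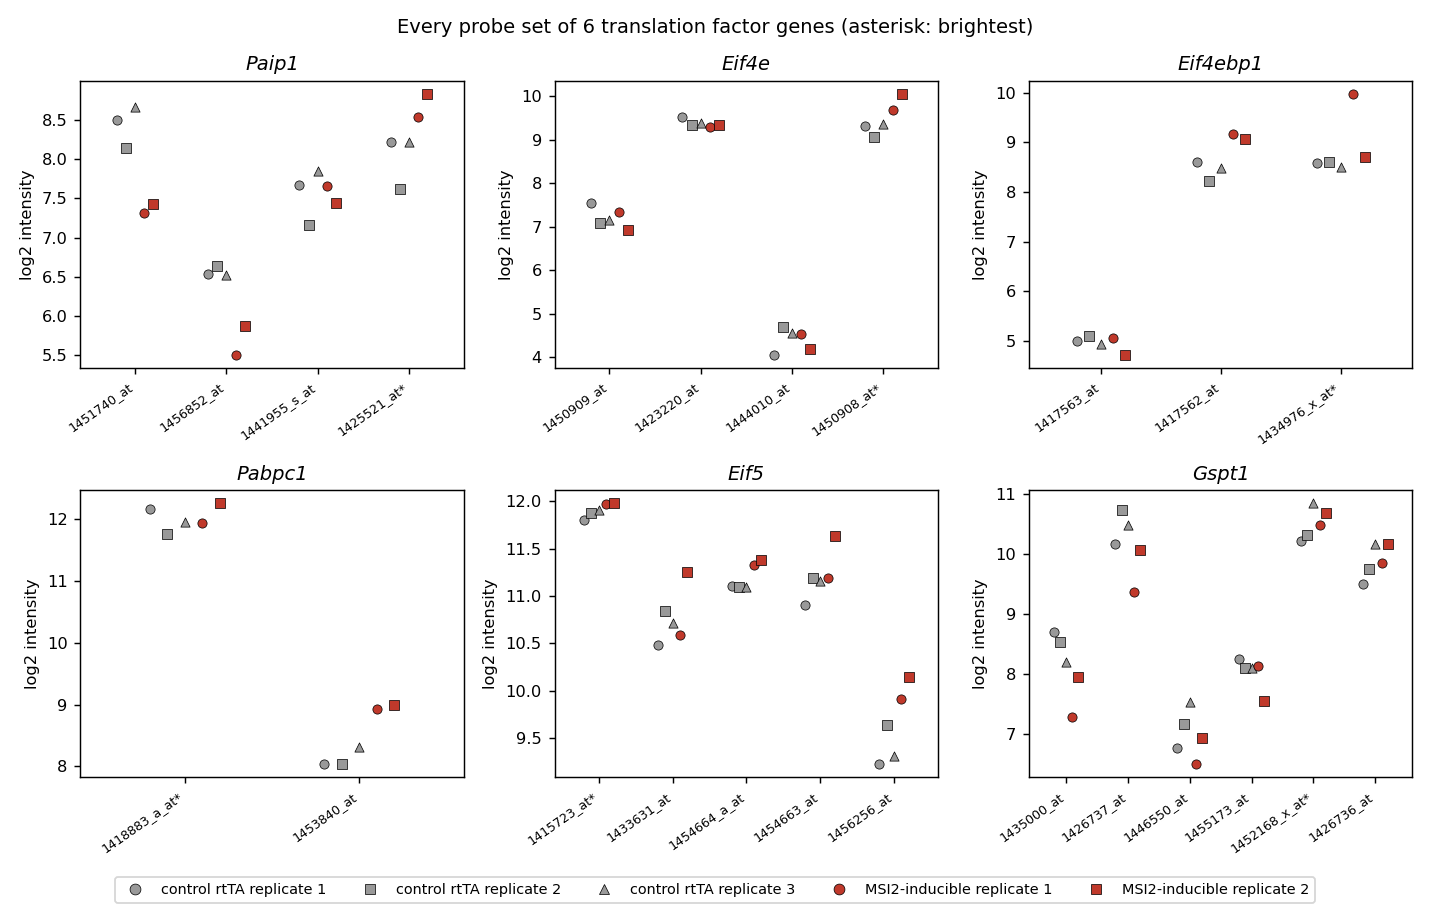
Log2 intensity of every probe set of Paip1, Eif4e, Eif4ebp1, Pabpc1, Eif5 and Gspt1 in the control rtTA (grey) and MSI2-inducible (red) arrays, ordered by difference; an asterisk marks the brightest probe set. For Paip1 the red points lie below the grey in 1451740_at and 1456852_at and above them in 1425521_at.

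Disagreement between probe sets was common. Of the 27 members with several, 9 had all probe sets on one side of 0 and 18 had probe sets on both sides, and for Paip1 (1.73) and Gspt1 (1.07) the differences spanned over 1. Across the 106 probe sets 0 passed at an adjusted p of 0.05, against 0.00858% of all 34945 named probe sets. At an unadjusted p under 0.05, 8 were higher and 4 lower, 11.3% against 5.72% of all named probe sets (2.91% higher and 2.81% lower). These 12 belong to Paip1 (3), Gspt1 (2) and, with 1 each, Eif4e, Eif4ebp1, Eif4g2, Eif4h, Eif5, Etf1 and Pabpc1, and probe sets of a gene are not independent, since they share its RNA. Groups did not overlap for 18 probe sets above the controls (17%, against 9.54%) and 12 below them (11.3%, against 9.52%).

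**Figure D4:**
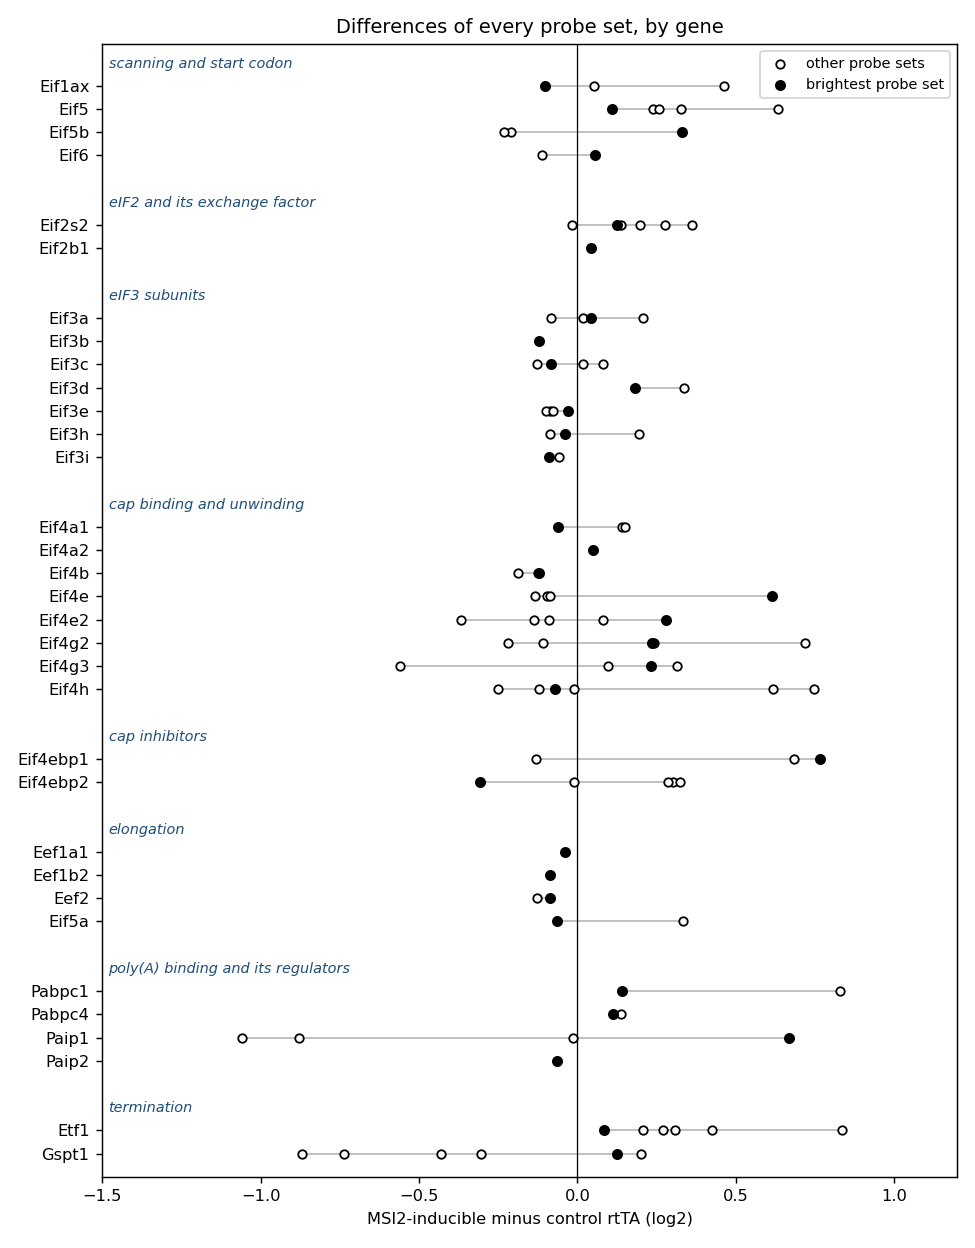
Differences (MSI2-inducible minus control rtTA, log2) of all 106 probe sets of the 33 genes, filled for the brightest probe set of a gene and open for the others, with a line over each gene's range. Probe sets of the eIF3 subunits lie close to 0, whereas Paip1 spans -1.06 to 0.67 and Gspt1 -0.87 to 0.20.

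The MSI2-inducible arrays differed from each other along the list. The median distance of the 33 genes from their control mean was -0.04 in replicate 1 and 0.12 in replicate 2, against 0.03, -0.04 and 0.04 in control replicates 1, 2 and 3. Replicate 1 lay below replicate 2 for 23 of 33 members (69.7%), against 56.1% of the genes with a mean between 8 and 14. In the brightest probe sets this held for Eif4e and Paip1 besides Eif2b1, Eif4b and Eef2, while Eif4ebp1, Eif5b and Eif4e2 were higher in replicate 1. The other probe sets of Eif4e2 were all lower in replicate 1, such as 1455108_at (9.30, against 10.24 in replicate 2). Some dimmer probe sets of Eif4e and Paip1 were higher in replicate 1. Markers of mature neutrophils moved with this split: the 7 of 8 with a value had a summed intensity of 61982 in replicate 1 and 11672 in replicate 2, against 14188 to 26544 in control arrays. The 6 of 8 erythroid markers with a value summed to 5115 and 1993, against 855 to 1930 in control arrays, and the 7 of 8 stem and progenitor markers to 7680 and 10266, against 8883 to 10023. The 5 monocyte and macrophage markers summed to 11421 and 5323, against 5480 to 6492 in control arrays. Most of that sum came from Lyz2, by far the brightest of them (log2 13.32 and 12.18). Csf1r (10.06 and 9.21) and Cd14 (6.11 and 5.03) were also higher in replicate 1. Adgre1 (3.57 and 3.66) and Cx3cr1 (5.21 and 5.20) hardly differed between the MSI2-inducible arrays. The 4 of 5 B cell markers with a value summed to 440 and 209, against 223 to 241, with Cd79a at 6.93 in replicate 1 and at most 4.82 elsewhere. The 3 of 5 T cell markers summed to 56 and 38, against 39 to 42. Mmp8 was the dimmest neutrophil marker (3.80 to 6.21) and the only 1 of the 7 to average under the median of all probe sets (5.57). Also under it were 1 erythroid, 3 B cell, 3 T cell and 3 monocyte and macrophage markers. The part of these cell types in the members' values was not tested. In such mixed samples fewer cells of a type and less RNA per cell cannot be told apart.

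Beyond these genes, a list of 70 further translation and poly(A) genes was examined, of which 64 had a value. None was called by limma at an adjusted p of 0.05, 29 lay higher and 35 lower, and the median difference was -0.02. At an unadjusted p under 0.05, 1 was higher and 1 lower, or 3.12% against 5.64% of all genes. The higher one was Eefsec, the elongation factor for selenocysteine, at 8.15, 8.44 and 7.94 in control and 8.84 and 8.65 in MSI2-inducible arrays (difference 0.57, adjusted p 0.880). The lower one was the Y-linked eIF2 subunit Eif2s3y, at 5.91, 3.89 and 5.49 in control and 2.76 and 2.64 in MSI2-inducible arrays (difference -2.40, adjusted p 0.679), a gene that depends on the sex of the animals, which the labels used here do not give. Eif2s3y averaged under the median of all probe sets (5.57), and its second probe set overlapped between the groups (difference -1.85). Its X-linked counterpart Eif2s3x differed by 0.01. The next by p were Eef1e1 (0.44) and Eif4e3 (0.62), higher. On the lower side they were Rptor, the scaffold of mTOR complex 1 (-0.48), and the deadenylase gene Cnot6 (-0.38). None passed limma's test (adjusted p 0.905 to 0.914). Probe sets disagreed, with differences from -0.81 to 0.42 for Rptor, -0.38 to 0.31 for Cnot6 and -0.16 to 0.62 for Eif4e3. The count of 2 was 1 without control replicate 1 or without control replicate 3, with no share of all genes given for those fits.

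By role, the kinases and controllers of translation had a median difference of -0.09 over 13 genes, 4 higher and 9 lower. Mtor differed by -0.10, Eef2k, the kinase that switches off Eef2, by -0.13, and the eIF2 kinase gene Eif2ak2 by -0.17. The other eIF2 kinase genes, Eif2ak1 (0.17), Eif2ak3 (0.31) and Eif2ak4 (0.03), went the other way, as did Larp1 (0.19). Other initiation factors had a median of 0.01 over 20 genes, other elongation and termination factors -0.13 over 10, and other poly(A) tail factors 0.03 over 21. Among these last, the nuclear poly(A) binding protein gene Pabpn1 differed by 0.20, the poly(A) polymerase gene Papola by -0.01 and the deadenylase gene Parn by -0.22, with adjusted p between 0.925 and 1.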

How the data were processed

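Expression was measured on 5 arrays. The authors deposited linear intensities, one value per probe set and sample, with array medians from 46.4 to 48.3. The submitters' processing notes list RMA, affy and R 2.11.0; how log values were returned to a linear scale, and a genome build for the values, are not given in the sources used here. Log2 was taken with no pseudocount. Of 45101 probe sets, 34945 non-control ones carried 1 gene symbol in the platform annotation, 932 probe sets carried several and 9211 none here; 34741 matched GRCm38.p6 gene IDs. The brightest probe set per gene gave 18193 genes.

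The test was limma's, version 3.58.1 under R 4.3.3 (lmFit, eBayes, two-sided, Benjamini-Hochberg over all genes, threshold 0.05). Probe sets were tested likewise over all 34945. The code was run on simulated data whose planted differences were larger than any member's. Its power at smaller differences was not tested. The number of arrays limits the precision. Per-array values were given for Pabpc1, Paip1, Paip2, Eif4e, Eif4g1 (not measured), Eif4ebp1, Eif4ebp2, Eif5a and Eef1a1, the 5 members with the smallest p in each direction, members whose probe sets spanned over 1, and Msi2; of other pathway genes, the 3 with the smallest p in each direction were named. Others were chosen after their values were seen. The members and lists were chosen with earlier results of these data known. The brightest probe set was chosen over all 5 arrays, so the tested group bears on the choice; the brightest in control arrays was added as an alternative after the data were seen. Other alternatives covered the probe set rule, low values, normalization, variance model, array weights, the replicate block and left-out arrays. Nothing in the labels pairs same-numbered arrays.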

Additional observations from a re-analysis of the deposited data

How the results depend on the processing

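No member and no other pathway gene was called in any of the alternatives run, including an adjusted p of 0.10, a repeated quantile normalization and each array left out; the lowest adjusted p of a member was 0.225, for Eif4ebp1 without MSI2-inducible replicate 2. A lone MSI2-inducible array was assumed to have the controls' spread. Apart from the brightest in control arrays, shares of all genes at an unadjusted p under 0.05 are not given for these alternatives. The counts that follow therefore cannot be read as a result about the members. The 2 members higher at an unadjusted p under 0.05 became 1 with the mean of probe sets (Pabpc1, neither of the original 2). With array weights 1 was left (Eif4e). The count was 3 without _x_at and _s_at probe sets (Eif4ebp1 joined), 0 with the replicate block and 0 with the brightest in control arrays. The 0 lower became 2 with the brightest in control arrays and 1 without _x_at and _s_at probe sets. When probe sets were fitted singly, 8 members counted as higher and 2 as lower. There a member counted if any of its probe sets passed, so members with several had more chances, and Paip1 counted in both directions. By probe set the share was 11.3%, against 5.72% of all named probe sets. The 2 other pathway genes became 8 when fitted singly, counted in the same way, and 1 when low values were dropped or with trend and robust on. Left-out arrays gave 0 to 2 members higher, 0 to 2 lower and 1 to 2 other pathway genes, and a median difference of members from -0.042 to 0.12; with the brightest in control arrays, a setting added after seeing the data, it was -0.0375. The replicate block rests on 2 pairs that nothing in the labels supports (correlations of same-numbered deviations 0.134 and 0.0990).

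Differences that turned direction were all uncalled, and most were near 0. With the mean of probe sets Paip1 (-0.32), Gspt1 (-0.34), Eif4ebp2 (0.12), Eif5a (0.13), Eif1ax (0.14), Eif4h (0.15), Eif4a1 (0.077), Eif3h (0.023), Eif5b (-0.037), Eif6 (-0.029) and Eif4e2 (-0.047) turned, and without _x_at and _s_at probe sets Gspt1 (-0.74) and Eif3c (0.082), and with the brightest in control arrays Paip1 (-1.06), Eif4e (-0.095) and Gspt1 (-0.74); these alternatives read other probe sets. With the replicate block, which leaves control replicate 3 out of the difference, Paip2 (0.021), Eif6 (-0.075), Eif3e (0.039) and Etf1 (-0.0053) turned. With an array left out, ranges that crossed 0 were Eif2b1 -0.52 to 0.61, Eif4e2 -0.33 to 0.89, Eif5b -0.0105 to 0.67, Eif4b -0.44 to 0.20, Eef2 -0.31 to 0.14, Eif6 -0.14 to 0.25, Eif3b -0.28 to 0.040, Pabpc1 -0.015 to 0.30, Eif3e -0.14 to 0.0805, Eif3i -0.21 to 0.0305, Eif3h -0.17 to 0.073, Paip2 -0.19 to 0.021, Eef1b2 -0.18 to 0.0080, Eef1a1 -0.12 to 0.046, Eif3a -0.042 to 0.13, Eif4a2 -0.0185 to 0.12 and Etf1 -0.0053 to 0.13. The cause was not tested.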

Other observations

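Dimmer probe sets of further poly(A) and initiation genes also separated the groups, and none passed limma's test over all probe sets. A second probe set of Pabpn1 lay at 7.55, 7.53 and 7.74 in control and 8.24 and 8.31 in MSI2-inducible arrays (difference 0.67, unadjusted p 0.00975, adjusted p 0.690), and its brightest differed by 0.20 in the same direction. Pabpn1's other probe sets differed by 0.20 and -0.06, so not all went one way. A second probe set of the poly(A) polymerase gene Papola was lower (difference -0.67, adjusted p 0.850), while its brightest differed by -0.01. Papola's remaining probe sets went both ways, from -0.63 to 0.26. One probe set of the initiation factor gene Eif2d (1437720_at) lay at 10.20 in MSI2-inducible replicate 1, against 6.09 in replicate 2 and 5.40 to 5.83 in control arrays, while its brightest differed by 0.00. These probe sets were chosen after their values were seen.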
